A study of Mus musculus with 18 samples.

Results

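The 4C fragment ends described here lie 1 to 10 Mb from the bait, on the constant-region side of the mouse immunoglobulin heavy chain locus (Igh), at chr12:103426025-112426024 of mm10. They were chosen by position alone: every fragment end in that interval that was listed in any of 18 libraries. There were 8415 such ends, of 56916 on chromosome 12 and 440025 in the genome. In 4C-seq, chromatin is crosslinked, cut and ligated, and the fragments joined to a single bait are amplified by inverse PCR and sequenced. Here the first cut was made with DpnII, and an end is the 24 bp beside a DpnII site. The bait lay in Eμ, the intronic enhancer of Igh, at chr12:113426025-113426048.

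The cells were CD43-negative B cells of the mouse spleen. They formed 6 groups of 3 libraries: Med1 mutant and then WT cells after 2 days with LPS and IL4, Med1 mutant and WT cells after 2 days with LPS alone, and Med1 mutant and WT resting cells on day 0. The labels give no allele, Cre driver, strain, age or sex, and do not say whether the 3 libraries of a group came from separate animals, so each p-value measures the spread between libraries, which may be technical. 4C reads test neither the loss of Med1 nor the cell type. The 6 WT libraries of the resting and LPS + IL4 deposit have titles that read WTKO beside a genotype label of WT, and the genotype label was followed. For replicate 2 of the WT cells with LPS and IL4, the growth protocol lists anti-CD40 where the others list LPS. The main fits and tests of reads in that group are therefore also given without it where they differ. Fits of covered ends, fits by DESeq2 and the activation difference in covered share were not repeated without it. The LPS libraries were deposited separately, mapped with another tool, and list covered ends without read numbers. LPS alone therefore cannot be told apart from its deposit and was compared between genotypes only.

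Eμ drives transcription of the heavy chain and contacts the downstream regulatory region when activated B cells switch class. Contacts of a bait over megabases fall with distance and follow the compartments of the chromosome: active, gene-rich chromatin meets active chromatin more often than it meets silent, gene-poor chromatin. Med1 is a subunit of Mediator, the complex that links enhancer-bound factors to RNA polymerase II. The 9 Mb studied hold 314 RefSeq genes, 99 of them protein-coding. Among them are widely expressed genes (Eif5, Hsp90aa1, Yy1, Papola), genes with roles in lymphocytes (Traf3, a restraint on NF-κB signalling in B cells; Tcl1, a cofactor of the kinase AKT; Bcl11b, a regulator of T-cell identity), the imprinted domain of Dlk1 and Meg3, and the Serpina genes, many of which encode protease inhibitors made in the liver.

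The sequences of ends in gene promoters show where the assay reads a contact: the DpnII cut site sets the position of an end, so it marks a ligated fragment and not the bases in contact. Of 201 RefSeq promoters in the interval (GRCm38.p6, 250 bases before to 50 bases after each start, 155 genes), 96 (47.8%) hold GATC, the DpnII site, which reads alike on both strands, against 47.1% of 1277 promoters on all of chromosome 12. Inside these promoters 64 ends were listed. All 61 with both flanks in the promoter table lay directly beside a GATC. The 3 below belong to genes of the named domains and were covered in at least 10 of 18 libraries. They are printed 5′ to 3′ on the strand of the gene, with the DpnII site and the captured end in capitals.
Eif5, chr12:111537851-111538150, plus strand: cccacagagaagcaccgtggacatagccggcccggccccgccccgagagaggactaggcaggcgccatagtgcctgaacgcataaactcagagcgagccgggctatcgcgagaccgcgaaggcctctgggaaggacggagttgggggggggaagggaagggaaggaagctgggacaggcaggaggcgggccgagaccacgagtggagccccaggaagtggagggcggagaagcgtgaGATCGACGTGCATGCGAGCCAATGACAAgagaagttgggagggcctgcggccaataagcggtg
Papola, chr12:105784447-105784746, plus strand: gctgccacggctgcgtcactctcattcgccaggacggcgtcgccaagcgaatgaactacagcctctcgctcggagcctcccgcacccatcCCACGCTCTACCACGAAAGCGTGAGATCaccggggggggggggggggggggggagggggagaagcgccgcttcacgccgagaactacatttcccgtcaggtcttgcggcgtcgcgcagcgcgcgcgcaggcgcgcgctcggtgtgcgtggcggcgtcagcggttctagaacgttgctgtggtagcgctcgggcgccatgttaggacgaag
Atg2b, chr12:105685192-105685491, minus strand: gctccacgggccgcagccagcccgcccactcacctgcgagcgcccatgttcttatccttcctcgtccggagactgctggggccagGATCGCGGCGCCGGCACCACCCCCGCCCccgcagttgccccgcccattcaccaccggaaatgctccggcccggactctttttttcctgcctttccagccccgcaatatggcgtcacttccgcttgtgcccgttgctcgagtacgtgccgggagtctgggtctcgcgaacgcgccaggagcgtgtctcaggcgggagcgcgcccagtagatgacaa

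The Eif5 end (chr12:111538092-111538115) began 9 bases before the annotated start of Eif5, which encodes a translation initiation factor, and was covered in 17 of 18 libraries. It held 81.3, 41.7 and 367 CPM (reads per 1000000 chromosome 12 reads over 5 kb from the bait) in mutant LPS + IL4 libraries and 236, 124 and 88.8 CPM in WT LPS + IL4 libraries. In resting cells it held 912, 124 and 252 CPM in mutant and 133, 278 and 392 CPM in WT libraries. All 4 groups overlapped. The Papola end (chr12:105784537-105784560), at the gene of a poly(A) polymerase, was covered in 11 libraries. It held 11.3, 0 and 8.27 CPM in mutant and 5.36, 11.5 and 0 CPM in WT LPS + IL4 libraries. It held 10.8, 16.5 and 13.3 CPM in the mutant resting libraries, against 5.16, 0 and 0 CPM in the WT resting libraries. The Atg2b end (chr12:105685379-105685402), at a gene of autophagosome formation, was covered in 10 libraries. It held 34.0, 38.9 and 27.1 CPM in mutant and 32.5, 27.2 and 11.4 CPM in WT LPS + IL4 libraries, against 0 CPM in all 3 mutant and 23.0, 39.4 and 0 CPM in WT resting libraries. A single end is a coarse measure, since a fragment is captured or missed in each library. Ends in promoters were covered more often than other ends in the mean of each group. The gap was smaller than the promoter SD in mutant LPS + IL4 (20.3% ± 5.41 against 17.5% ± 5.19) and WT LPS libraries (15.6% ± 6.25 against 11.9% ± 2.68). In WT LPS + IL4 libraries 25.0% ± 1.56 of the 64 were covered, against 16.3% ± 0.435 of the other 8351 listed ends (SD, n = 3). In WT resting libraries the shares were 14.6% ± 5.02 and 8.25% ± 0.770. This difference was not tested.

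The 12 libraries with reads held 2470497 to 21074434 reads, of which 55653 to 543547 lay in the interval. Mutant LPS + IL4 replicate 2 was by far the deepest. Each library covered 630 to 1934 of the 8415 ends. The 10 strongest ends of a library held 6.46% to 13.2% of the reads of the interval, and reads carry no molecular identifiers, so PCR copies cannot be separated from molecules. The number of covered ends was therefore used as a second measure. Within a group, 80.8% to 87.6% of the ends covered in any library were covered in only 1 of 3, and 4441 ends (52.8%) were listed in only 1 of the 18 libraries. Summed over 100 kb windows, replicates correlated with r = 0.486 to 0.798 for log2 reads and 0.757 to 0.918 for covered ends across 90 windows, as a description.

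The share of the interval in the contacts of Eμ was set against that of the chromosome beyond it. Its share of chromosome 12 reads over 5 kb from the bait was 6.13%, 5.33% and 4.92% in mutant LPS + IL4 libraries and 5.68%, 5.96% and 5.32% in WT LPS + IL4 libraries. In resting libraries it was 5.55%, 4.58% and 5.12% in mutant and 4.56%, 4.29% and 3.57% in WT cells. The WT libraries of the 2 conditions did not overlap, while those of the mutant did. Reads beyond 10 Mb on the same side made up 14.7%, 13.6% and 12.0% in mutant and 14.2%, 13.3% and 11.7% in WT LPS + IL4 libraries, against 19.8%, 16.3% and 17.0% in mutant and 16.4%, 17.3% and 14.0% in WT resting libraries.

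The ratio of reads in the interval to reads beyond 10 Mb separated the conditions in both genotypes. It was 0.416, 0.391 and 0.409 in mutant and 0.400, 0.449 and 0.453 in WT LPS + IL4 libraries, against 0.280, 0.281 and 0.302 in mutant and 0.278, 0.248 and 0.256 in WT resting libraries. Every LPS + IL4 library lay above every resting library. The mean log2 difference was 0.62 (two-sided exact permutation test within genotype, 400 arrangements, p = 0.005, the smallest they allow, and 0.04 after Benjamini-Hochberg adjustment over 8 single-value tests). The share itself differed by 0.28 on the log2 scale (exact permutation p = 0.025, adjusted 0.0667) and did not pass after adjustment. Without WT LPS + IL4 replicate 2, the library whose protocol names anti-CD40, the share differed by 0.26 (exact permutation p = 0.05). It also missed the threshold without WT LPS + IL4 replicate 1 (0.28, p = 0.05), mutant LPS + IL4 replicate 1 (0.23, p = 0.055) or mutant resting replicate 2 (0.24, p = 0.05) by the same exact test.

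Covered ends separated LPS + IL4 from resting cells in both genotypes. The interval held 12.7%, 12.3% and 12.6% of the covered chromosome 12 ends in mutant and 12.2%, 12.7% and 12.3% in WT LPS + IL4 libraries. It held 9.78%, 10.6% and 10.4% in mutant and 11.3%, 9.85% and 11.2% in WT LPS libraries, and 10.2%, 9.08% and 9.38% in mutant and 9.08%, 8.03% and 7.85% in WT resting libraries. Every LPS + IL4 library lay above every resting library, with a mean log2 difference of 0.49 (exact permutation p = 0.005, unadjusted). With each library taken to an equal 1016043 reads, a calculation added after the data were seen, the difference was 0.51 (exact permutation p = 0.005). Among WT libraries alone the difference was 0.58 and among mutant libraries 0.39, and neither pair of groups overlapped.

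**Figure D1:**
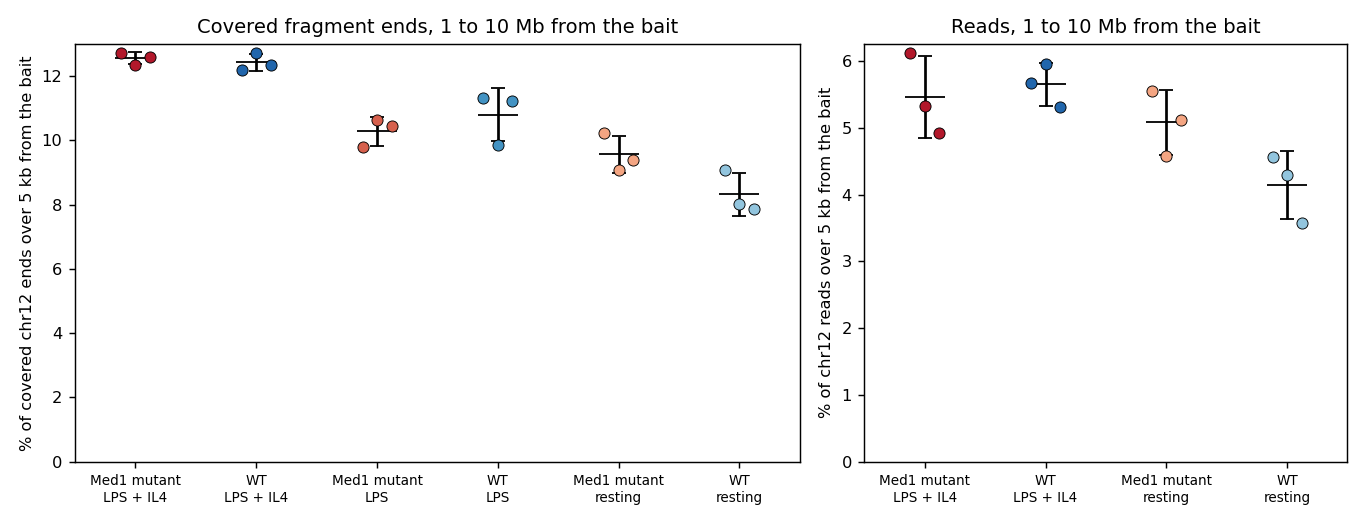
Share of the interval 1 to 10 Mb from the bait in each library. Left, percentage of covered chromosome 12 ends in all 6 groups; right, percentage of chromosome 12 reads in the 4 groups with read numbers. Points are libraries, the horizontal mark is the mean and the bar 1 SD (n = 3). On the left, the 6 LPS + IL4 libraries (12.2% to 12.7%) lie above the 6 resting ones (7.85% to 10.2%); on the right, the 3 WT LPS + IL4 libraries lie above the 3 WT resting ones and the mutant groups overlap.

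Contacts did not fall evenly with distance. In WT LPS + IL4 cells the band from 1 to 2 Mb held 15133 CPM and that from 2 to 3 Mb 14656 CPM, but the band from 3 to 4 Mb, which holds the Dlk1 to Dio3 domain, held 2849 CPM. Reads were again higher from 4 to 5 Mb, with 8468 CPM, around Evl, Yy1 and Wars. The band from 6 to 7 Mb, in the gene-poor stretch between Vrk1 and Bcl11b, held the fewest, 753 CPM. Beyond it, the band from 7 to 8 Mb, with Papola and Vrk1, held 5088 CPM. In the other groups, too, the bands at 3 to 4 Mb and 6 to 7 Mb held fewer than both their neighbours. The number of ends that a band offers was not controlled for, so these values mix contact with the ends available.

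The band from 7 to 8 Mb differed most between conditions in read ratio among the 9 bands of the WT cells. It held 4976 ± 626 CPM in mutant LPS + IL4 cells, against 2306 ± 923 CPM in mutant resting cells (SD, n = 3). In WT cells it held 5088 ± 560 CPM after LPS + IL4, against 1706 ± 641 CPM at rest. The 3 LPS + IL4 libraries lay above the 3 resting ones in both genotypes, and the ratios of means were 2.16 in mutant and 2.98 in WT cells. From 1 to 3 Mb the ratios were between 0.837 and 1.25. The slope of log2 reads on log2 distance over the bands averaged -1.004 ± 0.111 in mutant and -0.997 ± 0.108 in WT LPS + IL4 libraries, against -1.24 ± 0.221 in mutant and -1.42 ± 0.195 in WT resting libraries (SD, n = 3). The mean difference in slope was 0.33 (exact permutation p = 0.015, adjusted 0.06), which missed the threshold after adjustment.

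**Figure D2:**
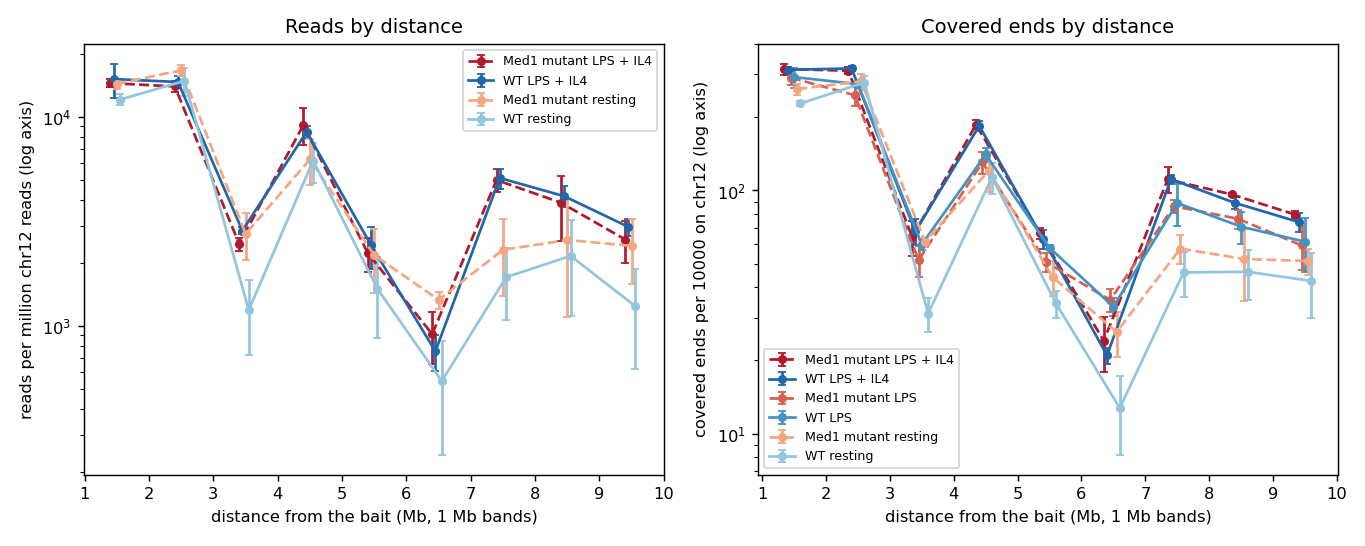
Contacts by distance in 1 Mb bands, with a log vertical axis. Left, CPM in the 4 groups with read numbers; right, covered ends per 10000 covered on chromosome 12 in all 6 groups. Points are means and bars 1 SD (n = 3), set side by side within a band. The bands at 3 to 4 and 6 to 7 Mb lie below both neighbouring bands in every group, and the LPS + IL4 groups are above the resting groups from 7 to 8 Mb.

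To ask which genes met Eμ, reads were summed over 15 domains named after their outer genes and fitted together with 1 Mb blocks of the rest of chromosome 12 (124 units, edgeR quasi-likelihood). The domains nearest the bait had the most reads for their length. In WT LPS + IL4 cells Eif5 to Klc1 held 2345 CPM per 100 kb, Tecpr2 to Rcor1 held 1939, Xrcc3 to Kif26a held 1697 and Ppp2r5c to Wdr20 held 1329. Evl to Wars, 4.70 Mb from the bait, held 1541, more than Traf3 to Tnfaip2 at 2.12 Mb with 938. Dlk1 to Dio3 held 258, Serpina 284 and Bcl11b 77.7, the lowest. These values do not control for the ends that a domain offers. Listed ends numbered 655 in the 270 kb of Eif5 to Klc1, 471 in the 829 kb of Dlk1 to Dio3 and 31 in the 93.7 kb of Bcl11b. The distal Bdkrb2 to Vrk1 and Gsc to Glrx5 domains, 7.61 and 8.67 Mb away, held 799 and 595.

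In WT cells 5 of the 15 domains rose with LPS + IL4 and none fell by edgeR, where 9.68% of the 124 units rose and 19.4% changed in either direction. These were Bdkrb2 to Vrk1, Dlk1 to Dio3, the Serpina cluster, the Tcl1 cluster and Gsc to Glrx5. In mutant cells 1 of 15 rose, Bdkrb2 to Vrk1, where 4.84% of units rose and 13.7% changed. The median log2 change of the domains was 0.64 in WT cells, against -0.07 over all units, and -0.05 in mutant cells, against -0.30 over all units. Scaling by TMM moved the median of all units in the mutant comparison to -0.00 and that of the domains to 0.28; all 124 units then split into 13 higher and 8 lower, against 6 higher and 11 lower as scaled here, and 4 domains rose. No domain differed between mutant and WT cells in its response to activation by edgeR (0 of 15, with 3 at an unadjusted p under 0.05; 0% of units called) or by DESeq2 (0 of 15; 1.61% called), nor by covered ends (limma, 0 of 13, with 2 at an unadjusted p under 0.05). The calls in only 1 genotype are thus not shown to differ.

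Bdkrb2 to Vrk1 (chr12:105563172-106078318) rose in both genotypes. Its genes are the bradykinin receptors Bdkrb2 and Bdkrb1, Atg2b, Gskip (a regulator of GSK3), the adenylate kinase Ak7, Papola and the nuclear kinase Vrk1. Its reads were 4392, 4232 and 3867 CPM in mutant LPS + IL4 libraries, against 1995, 1040 and 1687 CPM in mutant resting libraries. In WT cells they were 4783, 3054 and 4512 CPM after LPS + IL4, against 1515, 1686 and 839 CPM at rest. The conditions did not overlap in either genotype. The log2 change was 1.40 ± 0.32 (SE) in mutant cells (edgeR, adjusted p = 0.00238) and 1.61 ± 0.33 in WT cells (adjusted p = 0.000555). By edgeR it passed with each library left out, with an adjusted p of at most 0.0206 in mutant and 0.00598 in WT cells. Its covered ends also rose, by 1.01 ± 0.16 in mutant (limma, adjusted p = 0.000223) and 1.40 ± 0.16 in WT cells (adjusted p = 4.72e-06). The genotypes differed by 0.02 after LPS + IL4 and by 0.22 at rest on the log2 scale, with edgeR adjusted p of 0.991 and 0.836.

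Gsc to Glrx5 (chr12:104471209-105040911) includes Gsc, a homeobox gene of the early embryo, Dicer1, the ribonuclease that makes microRNAs, and Glrx5, a glutaredoxin of iron-sulfur cluster assembly. Its reads were 5114, 2502 and 2301 CPM in mutant LPS + IL4 libraries, against 2870, 917 and 1450 CPM in mutant resting libraries. In WT cells they were 3072, 3642 and 3460 CPM after LPS + IL4, against 1432, 2191 and 1300 CPM at rest. The mutant conditions overlapped and the WT ones did not. The log2 change was 0.92 ± 0.37 in mutant (edgeR, adjusted p = 0.0907) and 1.05 ± 0.37 in WT cells (adjusted p = 0.0447). The mutant change passed by DESeq2 (1.22 ± 0.35, adjusted p = 0.0028) and by edgeR with TMM factors (1.27 ± 0.33, adjusted p = 0.00459). The WT call was lost without any 1 of 5 libraries (edgeR, adjusted p up to 0.156): WT LPS + IL4 replicates 1, 2 and 3 and WT resting replicates 1 and 3. Covered ends passed in both genotypes, with 1.02 ± 0.21 in mutant (limma, adjusted p = 0.00204) and 0.89 ± 0.21 in WT cells (adjusted p = 0.00416).

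Dlk1 to Dio3 (chr12:109452485-110281097) is an imprinted domain: Dlk1, Rtl1 and Dio3 are transcribed mainly from the paternal chromosome, and the noncoding RNAs Meg3, Rian and Mirg from the maternal one. Its reads were 1712, 1564 and 1627 CPM in mutant LPS + IL4 libraries, against 1244, 1142 and 2708 CPM in mutant resting libraries. In WT cells they were 2120, 1845 and 2437 CPM after LPS + IL4, against 1086, 1046 and 354 CPM at rest. WT resting replicate 3 was the lowest and mutant resting replicate 3 the highest. The log2 change was -0.06 ± 0.42 in mutant (edgeR, adjusted p = 0.955) and 1.36 ± 0.42 in WT cells (adjusted p = 0.0203). By edgeR the WT change no longer passed when resting replicate 3 was left out (adjusted p = 0.0867), nor when replicate 1 (adjusted p = 0.0793) or 3 (adjusted p = 0.0955) of the LPS + IL4 libraries was. Covered ends gave 0.12 ± 0.19 in mutant (limma, adjusted p = 0.78) and 1.17 ± 0.19 in WT cells (adjusted p = 0.000158). The difference between the mutant and the WT response was -1.42 ± 0.59 in reads (edgeR, adjusted p = 0.398) and -1.05 ± 0.27 in covered ends (limma, adjusted p = 0.0608), and passed in neither.

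The Serpina cluster (chr12:103616675-104414334, 23 genes) held 2638, 1547 and 1515 CPM in mutant LPS + IL4 libraries, against 2698, 1276 and 1934 CPM in mutant resting libraries. In WT cells it held 2302, 2043 and 2443 CPM after LPS + IL4, against 1645, 575 and 510 CPM at rest. The log2 change was -0.05 ± 0.41 in mutant (edgeR, adjusted p = 0.955) and 1.31 ± 0.42 in WT cells (adjusted p = 0.0233). WT resting replicate 1 stood apart: without it the WT change was 2.06 (adjusted p = 0.000215) and the genotypes differed in their response (-2.11 ± 0.53, edgeR adjusted p = 0.021), while without any other library of the WT groups the WT call was lost (edgeR, adjusted p 0.0511 to 0.125).

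The Tcl1 cluster (chr12:105147019-105222737, 6 genes) rested on very few ends, 0 to 5 covered of 30 in each library. It held 142, 82.5 and 36.8 CPM in mutant LPS + IL4 libraries, against 236, 105 and 0 CPM in mutant resting libraries. In WT cells it held 44.3, 215 and 95.5 CPM after LPS + IL4, against 0.397, 5.88 and 6.30 CPM at rest. The fit gave a log2 change of 4.85 ± 1.49 in WT cells (edgeR, adjusted p = 0.02). It no longer passed when any 1 of resting replicates 1 and 2 or LPS + IL4 replicates 2 and 3 of WT was left out (edgeR, adjusted p 0.0511 to 0.114), and the domain was too sparse for the fit of covered ends.

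By covered ends 6 of 13 domains rose in mutant cells, where 12.3% of 122 units rose, and 8 of 13 in WT cells, where 15.6% rose (limma); 18.9% and 24.6% of units changed in either direction. Bdkrb2 to Vrk1, Gsc to Glrx5, Setd3 to Eml1, Evl to Wars and Traf3 to Tnfaip2 passed in both; the Serpina cluster (0.78 ± 0.18, adjusted p = 0.00407), Dlk1 to Dio3 and the interval from Vrk1 to Bcl11b also passed in WT cells. Traf3 to Tnfaip2, with Traf3, the intrinsic factor pathway gene Amn, the kinase Cdc42bpb and Tnfaip2, had 61, 111 and 80 covered ends in mutant and 75, 70 and 68 in WT LPS + IL4 libraries, against 33, 33 and 30 in mutant and 41, 28 and 36 in WT resting libraries. As a share of covered ends its log2 change was 0.74 ± 0.15 in mutant (limma, adjusted p = 0.00191) and 0.61 ± 0.15 in WT cells (adjusted p = 0.00504). Evl to Wars holds Evl, an actin regulator, Yy1, a transcription factor that is needed for B-cell development, and Wars, the tryptophanyl-tRNA synthetase. Its log2 change in covered ends was 0.61 ± 0.15 in mutant (limma, adjusted p = 0.00548) and 0.87 ± 0.15 in WT cells (adjusted p = 0.000193). Setd3 to Eml1, with the actin methyltransferase Setd3 and Ccnk (cyclin K), changed by 0.84 ± 0.18 in mutant (limma, adjusted p = 0.00216) and 0.93 ± 0.18 in WT cells (adjusted p = 0.000769). By reads these 2 did not pass with the main edgeR settings. Evl to Wars gave 0.50 ± 0.27 in mutant and 0.72 ± 0.27 in WT cells (edgeR, adjusted p 0.237 and 0.0612). Setd3 to Eml1 gave 0.43 ± 0.40 and 0.67 ± 0.40 (edgeR, adjusted p 0.488 and 0.271). Reads of Evl to Wars did pass by DESeq2, with 0.77 ± 0.26 in mutant and 0.80 ± 0.26 in WT cells (adjusted p 0.016 and 0.012). They also passed in both genotypes by edgeR with TMM factors. Wdr25 to Begain passed in mutant cells (1.43 ± 0.33, limma adjusted p = 0.00504), with 0.52 ± 0.33 and an adjusted p of 0.283 in WT cells. Its reads gave 1.48 ± 0.56 in mutant and 0.59 ± 0.55 in WT cells (edgeR, adjusted p 0.0774 and 0.562). In mutant cells they passed by DESeq2 (1.72 ± 0.43, adjusted p = 0.000558) and by edgeR with TMM factors (1.78 ± 0.55, adjusted p = 0.0187).

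Of the 5 domains nearest the bait, none passed in reads with the main edgeR settings. By DESeq2 Eif5 to Klc1 passed in mutant cells (0.44 ± 0.175, adjusted p = 0.0472). Traf3 to Tnfaip2, whose covered ends rose, gave a log2 change in reads of 0.25 ± 0.34 in mutant and 0.46 ± 0.34 in WT cells (edgeR, adjusted p 0.689 and 0.415); without WT resting replicate 1 the WT value was 1.06 ± 0.36 (adjusted p = 0.0285). Ppp2r5c to Wdr20 holds Ppp2r5c (a subunit of phosphatase 2A), Dync1h1 (the dynein heavy chain) and Hsp90aa1 (a chaperone), and its log2 change was -0.39 ± 0.21 in mutant and 0.04 ± 0.21 in WT cells (edgeR, adjusted p 0.235 and 0.96). Tecpr2 to Rcor1, with the corepressor Rcor1, gave -0.31 ± 0.26 in mutant and 0.00 ± 0.26 in WT cells (edgeR, adjusted p 0.443 and 0.996). Eif5 to Klc1, which also holds the kinase Mark3 and the creatine kinase Ckb, gave 0.18 ± 0.21 in mutant and 0.38 ± 0.21 in WT cells (edgeR, adjusted p 0.631 and 0.246). Xrcc3 to Kif26a, which begins with a gene of homologous recombination and overlaps the preceding domain at Klc1, gave -0.28 ± 0.19 in mutant and 0.11 ± 0.19 in WT cells (edgeR, adjusted p 0.358 and 0.779). Bcl11b had 0.630, 182 and 11.3 CPM in mutant and 70.7, 139 and 8.31 CPM in WT LPS + IL4 libraries, against 156, 37.0 and 38.2 CPM in mutant and 34.5, 102 and 3.78 CPM in WT resting libraries, and all groups overlapped.

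**Figure D3:**
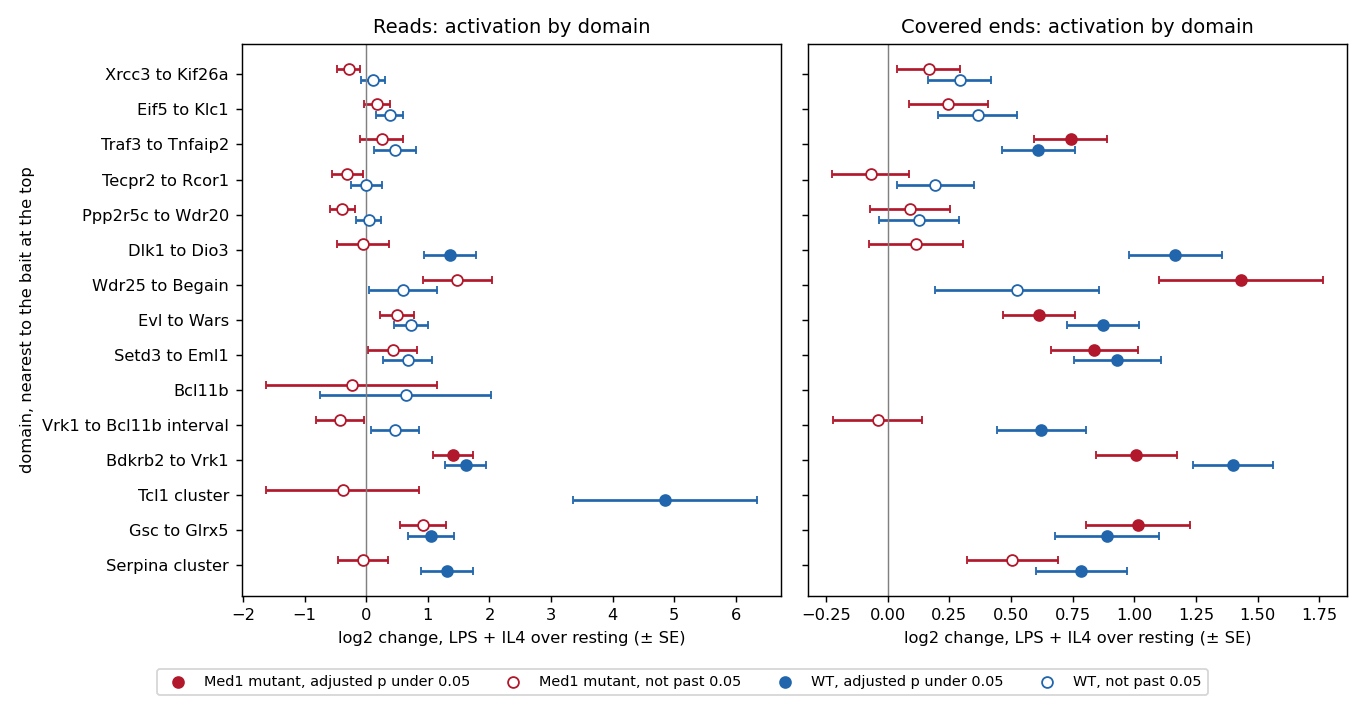
Log2 change from LPS + IL4 over resting cells in each domain, nearest the bait at the top, for reads (left, edgeR) and covered ends (right, limma). Red is the Med1 mutant and blue WT; bars are 1 SE, and filled points have an adjusted p under 0.05. Bdkrb2 to Vrk1 is filled in both genotypes on both sides, at 1.40 and 1.61 in reads; the Bcl11b and Tcl1 domains were too sparse for the right panel.

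None of the 90 windows of 100 kb was called by edgeR for activation of mutant cells (7 at an unadjusted p under 0.05; 0.267% of 1125 windows called on the chromosome) or of WT cells (13; 0.533% called). DESeq2 called 0 in mutant and 8 in WT cells, where it called 4.89% and 5.51% of the chromosome. In windows of 250 kb edgeR called 1 of 36 in WT cells, chr12:105676025-105926024, which holds Papola (2.08 ± 0.46, adjusted p = 0.0198; 2.78% of 467 called), and none in mutant cells (3 at an unadjusted p under 0.05; 2.57% called). By covered ends 11 of 51 windows rose in mutant cells, where 9.6% of 323 rose and 13% changed, and 18 of 51 in WT cells, where 15.8% rose and 22.3% changed (limma). Those of mutant cells included the windows at Syne3 (1.42 ± 0.23, adjusted p = 0.000798), a gene of the nuclear envelope, at Tnfaip2 (1.43 ± 0.30, adjusted p = 0.00518) and at Serpina3g, Serpina3i and Serpina3j (1.38 ± 0.33, adjusted p = 0.0128). Those of WT cells included the windows at Papola (1.47 ± 0.27, adjusted p = 0.00254), Tnfaip2 (1.55 ± 0.30, adjusted p = 0.0034), Syne3 (1.08 ± 0.23, adjusted p = 0.00542) and Dlk1 (1.77 ± 0.49, adjusted p = 0.0187), and the window nearest the bait, which holds no coding start (1.43 ± 0.32, adjusted p = 0.00671). The response of windows differed between genotypes in 0 of 90 by edgeR (3 at an unadjusted p under 0.05; 0% called), 0 of 51 by covered ends (limma; 3 at an unadjusted p under 0.05) and 1 of 90 by DESeq2 (1.78% called).

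**Figure D4:**
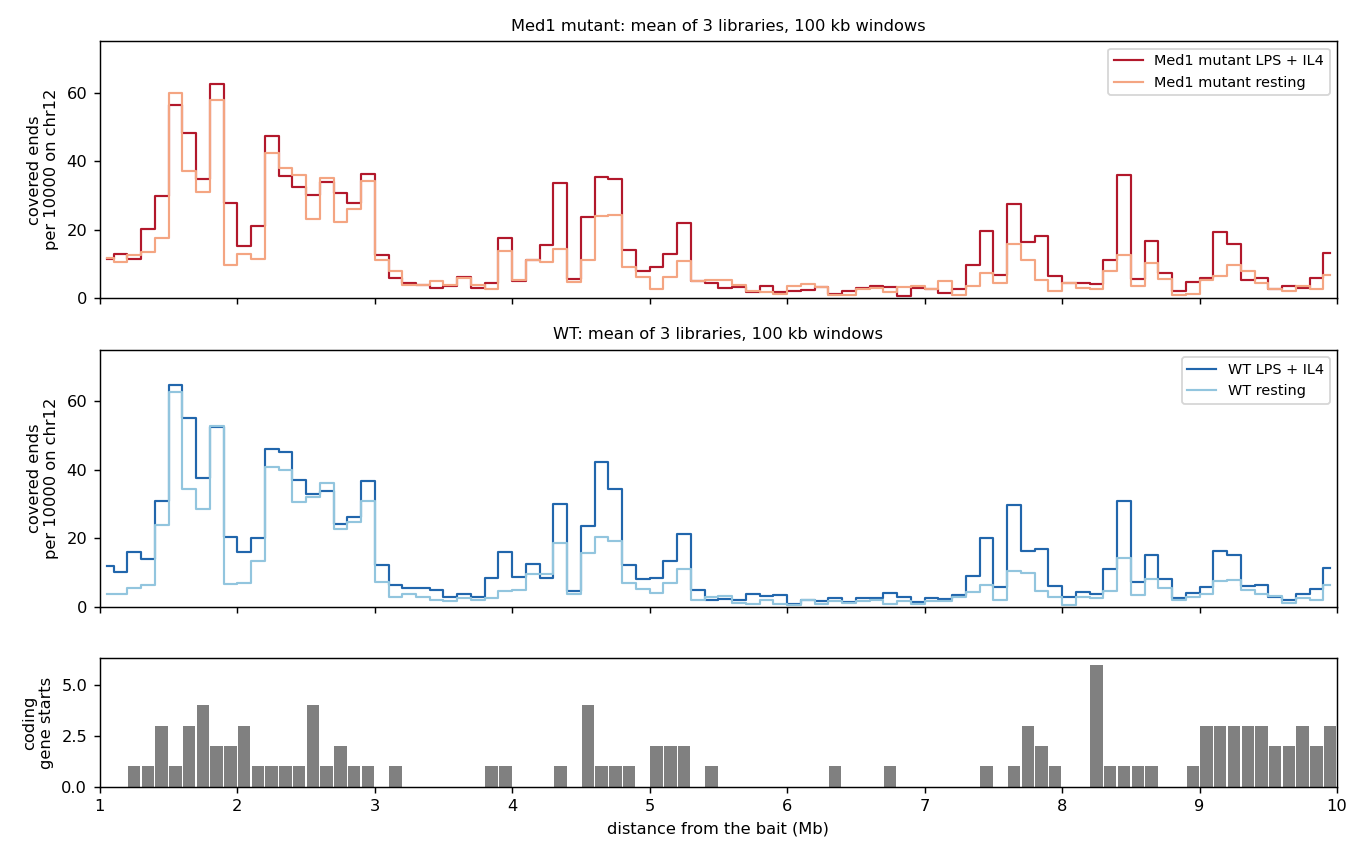
Covered ends per 10000 covered on chromosome 12 in 100 kb windows against distance from the bait, as means of 3 libraries, for mutant (top) and WT cells (middle); dark lines are LPS + IL4 and light lines resting. The lowest panel counts protein-coding gene starts in each window. Most windows from 1.5 to 3 Mb are high in all 4 groups, the stretch from 5.5 to 7.3 Mb is low in all, and the LPS + IL4 lines stand above the resting lines at 7.6 and 8.4 Mb.

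The effect of the Med1 mutation was then compared within each condition. After LPS + IL4 no domain differed between mutant and WT cells by reads (edgeR, 0 of 15, with 0 at an unadjusted p under 0.05 and 0.806% of units called). DESeq2 also gave 0 of 15 (0% of units called). Covered ends gave 0 of 13 (limma, with 0 at an unadjusted p under 0.05 and 0% called). The domain medians were -0.06 for reads by edgeR and 0.02 for covered ends on the log2 scale. Windows gave 0 of 90 by edgeR (1 at an unadjusted p under 0.05; 0% called), 0 of 51 by covered ends (limma, 1 at an unadjusted p under 0.05; 0.31% called) and 1 by DESeq2 (0.978% called). After LPS alone covered ends gave 0 of 13 domains and 0 of 51 windows (limma, 0 of each at an unadjusted p under 0.05; 0% called), with domain estimates between -0.18 and 0.07. Over both conditions with reads the share of the interval differed by 0.12 (exact permutation p = 0.245, adjusted 0.392) and the ratio to reads beyond 10 Mb by 0.02 (p = 0.685, adjusted 0.685). Over all 3 conditions the covered share differed by 0.05 (exact permutation p = 0.305, adjusted 0.407).

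Both shares of the interval given above were higher in all 3 mutant resting libraries than in the WT resting libraries, by 0.30 for reads and 0.20 for covered ends on the log2 scale, but 3 against 3 libraries cannot give an exact permutation p under 0.1, which both reached. Depth also differed at rest, with 2470497, 2959617 and 2599508 reads in mutant and 6026550, 4127705 and 3738095 in WT libraries. At equal reads the covered share was 9.56% ± 0.587 in mutant and 8.33% ± 0.537 in WT resting libraries (SD, n = 3). The difference between the genotype effects after LPS + IL4 and at rest was -0.35 for reads (exact permutation p = 0.08) and -0.19 for covered ends (p = 0.18), in a comparison added after the data were seen. By edgeR 0 of 15 domains differed at rest (4 at an unadjusted p under 0.05; 0.806% of units called), and DESeq2 also gave 0 (2.42% called). Without WT resting replicate 1 edgeR called 2, the Serpina cluster (1.86 ± 0.41, adjusted p = 0.00166) and the interval from Vrk1 to Bcl11b (1.50 ± 0.41, adjusted p = 0.0169), and without mutant resting replicate 3 it called the Tcl1 cluster (5.37 ± 1.28, adjusted p = 0.0115). With the unlabelled library sets described at the end as a block, added after the data were seen, edgeR called 3: the Serpina cluster (1.34 ± 0.41, adjusted p = 0.0434), the interval from Vrk1 to Bcl11b (1.37 ± 0.42, adjusted p = 0.0434) and the Tcl1 cluster (4.70 ± 1.51, adjusted p = 0.0499). Those sets were drawn from these same reads and not from the labels, so the 3 calls are a description and no support. For these alternative fits the share of all units called is not given here.

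By covered ends 2 of 13 domains were higher in mutant than in WT resting cells, where 2.46% of units were higher and 3.28% changed (limma). This fit did not take libraries to equal reads, and the mutant resting libraries were the shallower ones. Dlk1 to Dio3 had 26, 26 and 35 covered ends in mutant libraries, against 20, 18 and 13 in WT libraries (0.89 ± 0.19 as a share, adjusted p = 0.0113). The interval from Vrk1 to Bcl11b (chr12:106078319-107910402), which holds none of the listed genes, had 44, 27 and 42 covered ends in mutant libraries, against 31, 18 and 24 in WT libraries (0.75 ± 0.18, adjusted p = 0.022). This comparison shares its WT resting libraries with that of WT activation, in which covered ends of the same domains rose by 1.17 ± 0.19 and 0.62 ± 0.18. Windows of 100 kb gave 0 calls for genotype at rest by edgeR (11 at an unadjusted p under 0.05; 0% of 1125 called) and 0 by covered ends (limma; 9 at an unadjusted p under 0.05). DESeq2 called 5 of 90, where it called 5.33% of the chromosome. The window median was 0.61, against 0.17 over the chromosome; with TMM scaling these were 0.24 and -0.19.

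The relative difference between mutant and WT resting libraries was widest in windows without a protein-coding gene start, some of which hold noncoding genes. Of the 90 windows, 37 held no protein-coding gene start, 38 held 1 or 2 and 15 held 3 or more. The windows without one held 231, 180 and 252 CPM on average in mutant resting libraries, against 110, 179 and 101 CPM in WT resting libraries. Their covered ends per 10000 on the chromosome were 5.21, 3.97 and 4.60 per window in mutant, against 3.18, 2.86 and 2.45 in WT resting libraries. At equal reads the covered values were 5.21, 3.94 and 4.59, against 2.98, 2.84 and 2.39. The genotypes did not overlap in any of the 3 measures, although by reads the nearest libraries were within 1 CPM. After LPS + IL4 the same windows had 5.01 ± 0.297 covered ends in mutant and 4.72 ± 0.190 in WT cells, and after LPS 5.12 ± 0.604 and 5.27 ± 0.684 (SD, n = 3). In resting cells, windows with 1 or 2 starts had 15.7 ± 0.514 covered ends in mutant and 14.2 ± 1.19 in WT libraries, and windows with 3 or more had 12.7 ± 1.24 and 12.6 ± 0.625. By reads, the windows with 1 or 2 starts held 873 ± 91.4 CPM in mutant and 722 ± 110 CPM in WT resting libraries, and the genotypes overlapped. Each WT resting library had a lower share of its covered ends in windows without a coding start than each mutant resting and each LPS + IL4 library. These classes were compared after the values were seen, so they are given without a test.

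**Figure D5:**
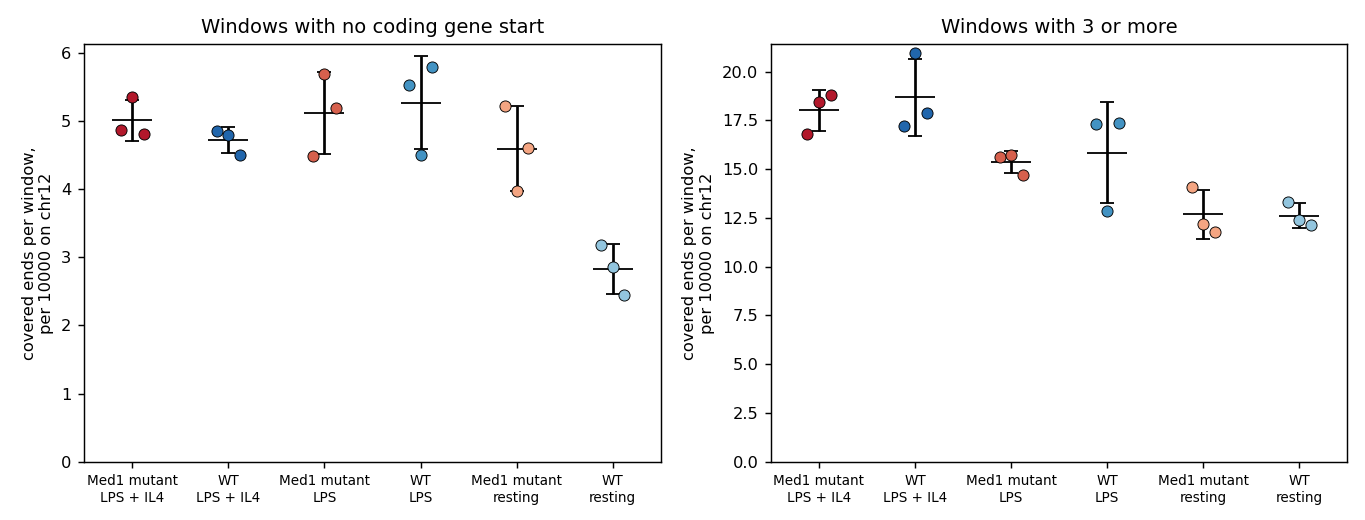
Covered ends per 100 kb window, per 10000 covered on chromosome 12, in the 37 windows with no protein-coding gene start (left) and the 15 with 3 or more (right). Points are libraries, the horizontal mark is the mean and the bar 1 SD (n = 3). On the left, the mutant resting libraries (3.97 to 5.21) lie above the WT resting ones (2.45 to 3.18); on the right the resting groups overlap.

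Windows with a protein-coding gene start had more covered ends on average than windows without one in each group, as a description. Those with 3 or more starts had fewer than those with 1 or 2 in each group. In WT LPS + IL4 cells the means per window were 4.72 without a start, 20.7 with 1 or 2 and 18.7 with 3 or more, per 10000 on the chromosome. The number of ends that a window offers was not controlled for: listed ends ran from 14 to 274 per window, so these values mix contact with the ends available. Across the 90 windows the number of protein-coding gene starts correlated with covered ends. Spearman's rho was 0.525 in mutant and 0.539 in WT LPS + IL4 cells, 0.468 and 0.456 after LPS, and 0.382 and 0.522 at rest. Distance gave rho of -0.584 to -0.434, and protein-coding gene starts and distance 0.0726. These describe windows of shared libraries and carry no test. Windows at 24 listed genes that are widely expressed or used by B cells (20 windows) had a median of 1044 CPM over the 12 libraries, and 19 of the 20 lay above the median of all 90 windows, 259 CPM. Windows at 42 listed genes of other tissues (23 windows) had a median of 270 CPM, and 12 lay above that median. The windows at widely expressed genes lay nearer the bait, at a median of 3.77 Mb against 7.82 Mb. Among the windows with most reads were those of Ppp1r13b (3690 CPM, 1.5 Mb away), Eif5 and Mark3 (3062), Traf3 (2641), Rcor1 (2117) and Klc1 with Xrcc3 and Zfyve21 (1941).

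A few single ends recurred. The end with most reads in each of the 4 groups, chr12:109188462-109188485, lay in no gene, 120 kb from the start of Begain, the nearest coding gene, on the side of Dlk1. It was covered in all 18 libraries. It held 748, 574 and 939 CPM in mutant and 492, 197 and 782 CPM in WT LPS + IL4 libraries, and 95.5, 773 and 683 CPM in mutant and 316, 848 and 912 CPM in WT resting libraries, so the groups overlapped. Only 3 of the 8415 ends were covered in all 18 libraries; the others lay in the Serpina cluster near the pseudogene Serpina3l-ps and in the Dlk1 to Dio3 domain near the microRNA gene Mir3072. An end 589 bases before the start of Traf3 (chr12:111165732-111165755), inside the gene 4930595D18Rik, was covered in 15. It held 255, 201 and 415 CPM in mutant and 215, 171 and 455 CPM in WT resting libraries, but 0.630, 296 and 344 CPM in mutant and 0, 388 and 0 CPM in WT LPS + IL4 libraries.

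An end at Syne3 (chr12:105010371-105010394), 216 bases from an annotated start, was named because it ranked second in mutant LPS + IL4 cells. It held 517, 136 and 307 CPM in mutant and 171, 170 and 147 CPM in WT LPS + IL4 libraries. It was at 0 CPM in all 3 mutant resting libraries and in WT resting replicates 1 and 3, with 426 CPM in WT resting replicate 2, and it was listed in none of the 6 LPS libraries. Its choice used these levels, so they are a description.

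Of the ends on chromosome 12, 90 had at least 50 reads in at least 5 of the 6 libraries made up of mutant replicates 2 and 3 and WT replicate 3 of both conditions, and under 50 reads in each of the other 6 libraries. Only 1 of the 90 lay in the interval, and 1 end on the chromosome showed the reverse. The labels do not name this grouping of libraries. Within its parts, the share of reads was higher in mutant than in WT resting libraries by 0.33 and 0.44 on the log2 scale, and the differences were 0.08 and -0.05 after LPS + IL4.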

How the data were processed

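B cells of the mouse spleen were profiled by 4C-seq from the Eμ bait, with 3 libraries in each of 6 groups of genotype and culture condition. Per the labels' protocols, chromatin was cut with DpnII and Csp6I and reads were single-end. The resting and LPS + IL4 libraries were mapped with Bowtie and the LPS libraries with Bowtie2, to mm10, per the submitters' processing notes; other steps are not given in the sources used here. The 12 deposited files of the first kind hold raw read counts per 24 bp fragment end, as whole numbers, and list no end without reads. The 6 deposited LPS files list covered ends with coordinates and no other value column, so their depth is unknown. The deposited counts are whole numbers that sum to a different total in each library.

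Reads over 5 kb from the bait on chromosome 12 gave the library size. Counts were summed in 100 kb windows (mean of at least 10 reads, 1125 kept), in 15 domains and in 1 Mb blocks, and fitted over the 12 libraries with edgeR 4.0.16 (quasi-likelihood, robust, no TMM factors, R 4.3.3). Covered ends, as log2 of their share per 10000 with a pseudocount of 1 (windows with a mean of at least 5), were fitted over 18 libraries with limma 3.58.1. DESeq2 1.42.0 was an alternative. P-values are two-sided, adjusted by Benjamini-Hochberg over all units of the chromosome, with a threshold of 0.05. Single values were tested by exact permutation within genotype or condition. The edgeR and limma fits were also run on simulated data with known changes, and the outcome is not given here. The simulated libraries were drawn independently, so they do not show how the fits behave with the unlabelled library sets. Python 3.11.15, numpy 2.4.6, pandas 2.3.3, scipy 1.17.1 and matplotlib 3.10.9 did the rest.

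All 15 domains are given; the named windows are among the 10 with the largest change that passed in a comparison or the 5 with most reads, and the named ends are the 5 with most reads in each group mean, of which the recurrent or gene-proximal ones are described, and promoter ends of listed genes covered in at least 10 libraries. The domains, gene lists and tests were chosen with earlier results of these data known. Gene and promoter positions are RefSeq's. Replicate numbers are shared between groups, and the main tests did not pair libraries by them. The deviations of same-numbered libraries from their group means did not correlate (r from -0.0476 to 0.0447 over 12 pairs). That check cannot show that the libraries are unpaired. The unlabelled library sets follow the same replicate numbers in resting and LPS + IL4 cells, so pairing remains possible. Results with the replicate block are given below. Alternatives covered library size, normalization, filters, window size, the bait neighbourhood, single strong ends, the measure, the test, blocks for replicate or library set, and leaving out single libraries.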

Additional observations from a re-analysis of the deposited data

How the results depend on the processing

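Counts below are of windows or domains in the interval past an adjusted p of 0.05. Where no share of all units stands beside a count, the count is not set against the rest of the chromosome. The same holds for the counts at an unadjusted p given above. For 100 kb windows, none of which was called with edgeR, WT activation gave 1 with 250 kb windows, 8 with DESeq2 and 18 with covered ends, mutant activation gave 11 with covered ends, and DESeq2 gave 5 for genotype at rest, 1 for genotype after LPS + IL4 and 1 for the difference in response. Leaving out 1 library gave 0 to 1 for WT activation and 0 to 1 for genotype at rest, each 1 without WT resting replicate 1. For domains, WT activation gave 8 with covered ends and 1 to 5 with 1 library left out. Mutant activation gave 2 with reads over 1 Mb from the bait as library size, 4 with TMM factors, 3 with ends capped at the 99th percentile, 5 with DESeq2 (19.4% of all units called), 6 with covered ends and 1 to 2 with 1 library left out; the second domain came without mutant resting replicate 1. Genotype at rest gave 2 with covered ends and 0 to 2 with 1 library left out. It gave 3 with the unlabelled library sets as a block, which was added after the data were seen. Those sets were drawn from these same reads, so the 3 are no support. The difference in response gave 0 to 1 with 1 library left out. The share of the interval after activation kept its direction, from 0.23 to 0.31 with 1 library left out. For genotype the share was 0.11 with covered ends (exact permutation p = 0.04), 0.11 with covered ends at equal reads (exact permutation p = 0.01, added) and 0.17 with reads over 1 Mb as library size (exact permutation p = 0.04), and the covered share was 0.11 over the 2 conditions with reads (exact permutation p = 0.04) but -0.07 with LPS alone (exact permutation p = 0.4). The cause of these shifts was not tested. The ratio to reads beyond 10 Mb was 0.60 to 0.64 for activation and -0.005 to 0.05 for genotype with 1 library left out, below 0 only without WT LPS + IL4 replicate 1. As a hint only, the replicate block gave 0.28 for the share after activation (exact permutation p = 0.0625, of 64 sign changes), 2 domains for mutant and 6 for WT activation, and 0 in the genotype comparisons and the difference in response; the library-set block gave 2 for mutant and 6 for WT activation. WT activation also gave 6 with TMM factors, with capped ends and with DESeq2 (23.4% of all units called). Covered ends of the LPS libraries have no depth, which limits what they can show.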
